A study of Mus musculus with 17 samples.

Results

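The 10 genes described here make up the core of the MHC class I antigen presentation pathway: the heavy chains H2-K1 and H2-D1, the light chain B2m, the peptide transporter and loading genes Tap1, Tap2 and Tapbp, the immunoproteasome subunits Psmb8, Psmb9 and Psmb10, and the transactivator Nlrc5. They were chosen by gene symbol, after the Ensembl identifiers of the count table had been mapped to symbols, and are 10 of 31091 gene identifiers in the table. All 10 had counts in every sample. The study asked how conventional dendritic cells of the cDC1 and cDC2 type respond to tumor cells that die in different ways. Splenic CD11c+ cells were enriched magnetically from pooled spleens of young adult female C57BL/6JRj mice that carried subcutaneous B16 melanoma cells that secrete FLT3L, a cytokine that expands cDCs. The cells were cultured for 6 h in the presence of GM-CSF with medium of TC-1 cells, a murine lung carcinoma line, and cDC1s and cDC2s were then sorted by flow cytometry for RNA sequencing of polyadenylated RNA.

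The groups with WT medium received medium of live, unmodified TC-1 cells. The groups with BimS debris received medium with the remains of TC-1-iBimS cells, which die by apoptosis once the BH3-only protein BimS is switched on. The groups with RIPK3 debris received medium with the remains of TC-1-iRIPK3 cells, which die by necroptosis once an oligomerizing RIPK3 is switched on. Both modified lines are single clones that carry the repressor CymR and place the death gene behind a CMV5 promoter under cumate control, and all lines, WT included, were given cumate. WT TC-1 cells thus differ from the dying cells in the vectors and the cloning as well as in death. There were 17 samples in 6 groups, 3 per group and 2 for cDC2s with RIPK3 debris. The replicates carry numbers from 1 to 3 in the labels, which do not say whether they came from separate mice or cultures, so p-values measure the spread between these samples.

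Total counts per sample lay between 16095159 and 21645289, with a median of 18986002. The sorted cells carried the markers of their label. The summed level of 8 cDC1 markers was 1413 to 1733 CPM in cDC1s and 98.9 to 131 CPM in cDC2s, while that of 6 cDC2 markers was 2.13 to 4.02 and 280.2 to 371 CPM. The summed markers of B cells, T and NK cells, macrophages, plasmacytoid dendritic cells, TC-1 cells and B16 cells reached at most 8.00 CPM in any sample, the macrophage markers in cDC2s. In RNA of sorted populations, less RNA per cell and fewer expressing cells cannot be told apart.

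MHC class I molecules show peptides from inside the cell to CD8+ T cells, and dendritic cells use them to prime such T cells, also with peptides taken from dead cells they have engulfed. Proteins are cut by the proteasome, and in immune cells by the immunoproteasome, whose catalytic subunits Psmb8, Psmb9 and Psmb10 replace Psmb5, Psmb6 and Psmb7 of the constitutive particle. The Tap1/Tap2 transporter carries the peptides into the endoplasmic reticulum, where tapasin (Tapbp) helps to load them onto a heavy chain paired with B2m. Nlrc5 acts with RFX, CREB and NF-Y factors on the promoters of these genes, and interferon signalling, in part through IRF1, raises most of them.

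In the GRCm39 annotation, all 10 are protein-coding genes and 7 lie on chromosome 17. Tapbp is at chr17:34134873-34148267 (+), H2-K1 at chr17:34214987-34219321 (-) and H2-D1 at chr17:35481691-35486475 (+). Psmb9 at chr17:34400960-34406738 (-), Tap1 at chr17:34405996-34416199 (+), Psmb8 at chr17:34416690-34420428 (+) and Tap2 at chr17:34422501-34435829 (+) follow each other. Outside chromosome 17, B2m lies at chr2:121977957-121983594 (+), Nlrc5 at chr8:95160984-95253900 (+) and Psmb10 at chr8:106662362-106665077 (-). RefSeq promoter windows, 250 bases before to 50 after the start, were matched for 8 of the 10 genes. Tap2 and Nlrc5 had no entry. The windows come from GRCm38.p6, and each was found exactly 1 time in GRCm39, whose positions are given.

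The promoters of 3 genes are shown because their genes behaved as groups in the data: Tap1 and Psmb9 are transcribed head to head and their windows share 275 bases, and the heavy chains varied together across samples. Capitals mark GGGGATTCC, an instance of the NF-kB letters GGGNNTTCC, and TTTCACTTC, an instance of the interferon-type letters GAANNGAAA read on the other strand. The windows run at chr17:34406280-34406579 (+) for Tap1, at chr17:34219258-34219557 (-) for H2-K1 and at chr17:35481820-35482119 (+) for H2-D1.
Tap1: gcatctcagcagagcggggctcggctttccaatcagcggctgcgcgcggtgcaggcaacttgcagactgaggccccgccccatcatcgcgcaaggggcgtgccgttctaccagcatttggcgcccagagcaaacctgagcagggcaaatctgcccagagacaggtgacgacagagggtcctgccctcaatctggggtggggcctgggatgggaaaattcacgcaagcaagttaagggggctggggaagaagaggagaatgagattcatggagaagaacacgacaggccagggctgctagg
H2-K1: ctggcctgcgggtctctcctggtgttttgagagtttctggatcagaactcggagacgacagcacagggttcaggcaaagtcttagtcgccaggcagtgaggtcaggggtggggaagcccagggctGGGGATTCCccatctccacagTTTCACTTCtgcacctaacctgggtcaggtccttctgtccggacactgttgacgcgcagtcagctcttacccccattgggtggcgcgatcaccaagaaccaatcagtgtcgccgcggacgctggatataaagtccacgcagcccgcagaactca
H2-D1: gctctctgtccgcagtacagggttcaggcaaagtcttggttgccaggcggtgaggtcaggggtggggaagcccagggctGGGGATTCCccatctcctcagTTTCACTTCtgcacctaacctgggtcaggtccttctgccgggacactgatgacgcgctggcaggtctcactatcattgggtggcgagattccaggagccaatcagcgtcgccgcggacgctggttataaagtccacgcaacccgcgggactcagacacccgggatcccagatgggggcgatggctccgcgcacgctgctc

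The NF-kB letters began 125 bases before the start in this H2-K1 window and 171 bases before it in H2-D1, and the windows shared an unbroken run of 47 bases. Among 32851 windows of the same length, 5.82% held GGGNNTTCC on either strand. The letters GAANNGAAA, which were added after the windows had been seen, occurred in 7.52% of windows and, among the 8 matched genes, in 2, H2-K1 and H2-D1. Of the other letters searched, GAAANNGAA (8.56% of windows) occurred in B2m as GAAACTGAA, 139 bases before the start, and TTCNNNGAA (8.3% of windows) in Psmb8 as TTCCCAGAA, 97 bases before it. Tap1, Psmb9, Psmb10 and Tapbp held none of the letters in these windows. The motifs overlap in part in their letters, and a match is a description only.

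Reads of some members can be shared with other genes. Of all 54-base windows in the annotated transcripts, 54 being the read length, 9.53% for H2-K1 and 10.4% for H2-D1 also occurred on the same strand in transcripts of another gene, among them each other, H2-Q4 and H2-Q1. For Tapbp the share was 16.3%, mostly in Zbtb22, and for B2m and Psmb10 it was 0%. On the other strand, 10.2% of the Tap1 windows occurred in Psmb9 and 16.3% of the Psmb9 windows in Tap1, where the genes overlap by 743 bases. Over both strands the share was 20.8% for H2-K1, 25.3% for H2-D1, 40.1% for Tapbp, 10.7% for Psmb8 and 8.45% for Tap2. Whether the counting used strand is not given in the sources used here. The levels of these genes and of Tap1 and Psmb9 carry that uncertainty. Those of H2-K1, H2-D1 and Tapbp also carry that of reads shared on the same strand.

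The unit CPM used for every level is the count of a gene relative to its sample's TMM-normalized library size. To set genes beside each other, CPM was divided by the kilobases of all annotated exons of a gene joined. That length is not that of the transcripts present, so the order between genes depends in part on the annotation. H2-D1 was highest in both cell types, with medians of 519.9 CPM per kb in cDC1s (n = 9) and 632 in cDC2s (n = 8). B2m followed at 505 and 534, and H2-K1 at 249 and 333 CPM per kb. H2-D1 and B2m overlapped in their ranges in cDC1s (454 to 605 and 448 to 569.6 CPM per kb) and in cDC2s. In cDC1s the next in order were Psmb8 (90.6), Tapbp (69.8), Tap1 (62.5), Tap2 (43.3), Psmb9 (24.3), Psmb10 (19) and Nlrc5 (11.1 CPM per kb). The ranges of neighbours overlapped between Tapbp and Tap1 and between Psmb9 and Psmb10, and not between the others. In cDC2s the order was Tapbp (48.8), Psmb8 (41.6), Tap1 (35.2), Tap2 (20.9), Psmb10 (8.3), Psmb9 (7.61) and Nlrc5 (7.19 CPM per kb). There the last 3 genes overlapped in their ranges, as did Tapbp, Psmb8 and Tap1. In CPM without length, Psmb9 stood above Psmb10 in cDC2s, with medians of 28.9 and 14.4.

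**Figure D1:**
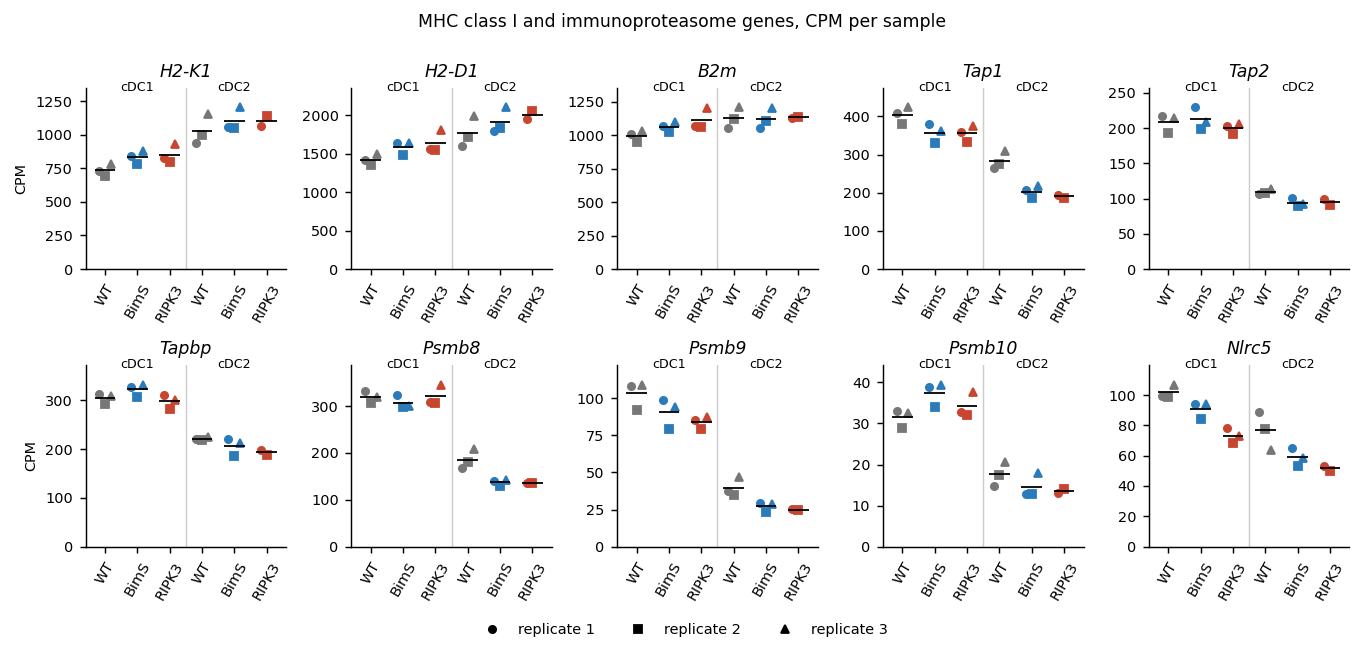
CPM of each of the 10 genes (vertical axes, from 0) in every sample of the 6 groups (horizontal axes), with marker shapes for the replicate numbers and a black line for the group mean. The means of the heavy chains lie higher in cDC2s, the samples of the transporter, loading and immunoproteasome genes lie higher in cDC1s, Nlrc5 overlaps between the cell types, and the group means of Tap1, Psmb8, Psmb9 and Nlrc5 lie below that of WT medium with both kinds of debris in cDC2s.

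The first comparison set cDC1s against cDC2s over all media. At the RNA level the 10 genes were split. The peptide supply genes and Nlrc5 were higher in cDC1s, while H2-K1, H2-D1 and, by a small margin, B2m were lower. All 10 genes passed an adjusted p of 0.05 in the quasi-likelihood test of edgeR, 7 higher and 3 lower in cDC1s, beside 30.4% and 29.4% of the 19082 genes tested. The median log2 difference over the 10 genes was 0.64, beside 0.03 over all genes tested.

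Psmb9 differed most. It ranged from 79 to 109 CPM in cDC1s, with a median of 92.4, and from 23.6 to 46.8 CPM in cDC2s, with a median of 28.9. The log2 difference was 1.60 ± 0.0761 (SE; adjusted p = 4.32e-14), and the ranges did not overlap. The other immunoproteasome subunits were also higher in cDC1s, Psmb10 by 1.15 ± 0.0944 and Psmb8 by 1.03 ± 0.0615 on the log2 scale. Psmb8 ranged from 299 to 346 CPM in cDC1s and from 129 to 209 CPM in cDC2s.

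The transporter genes followed. Tap2 had a median of 206 CPM in cDC1s against 99.8 in cDC2s (1.05 ± 0.0461 on the log2 scale). Tap1 had medians of 376 and 212 CPM (0.72 ± 0.0543) and Tapbp of 308 and 215 CPM (0.56 ± 0.042). No cDC1 sample overlapped with a cDC2 sample in any of the 3 genes. For Nlrc5 the difference was smaller, 0.50 ± 0.056 with medians of 93.9 and 61.1 CPM, and the ranges overlapped (68.5 to 107 and 50.2 to 88.5 CPM).

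The heavy chains went the other way. H2-K1 had a median of 794 CPM in cDC1s against 1060.0 in cDC2s, with a log2 difference of -0.44 ± 0.0466 (adjusted p = 1.02e-09) with no overlap between the cell types. For H2-D1 the medians were 1556 and 1891 CPM, with overlapping ranges and a difference of -0.30 ± 0.0463 (adjusted p = 1.21e-06), a call lost with limma on log2(count + 1) without normalization (-0.11). B2m was lower in cDC1s by a small margin, -0.12 ± 0.0413 (adjusted p = 0.016), but it was higher by 0.08 (adjusted p = 0.281) on that unnormalized scale, on which the median of all genes was itself 0.20 higher in cDC1s. Calls of all 10 genes held without any single sample.

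**Figure D2:**
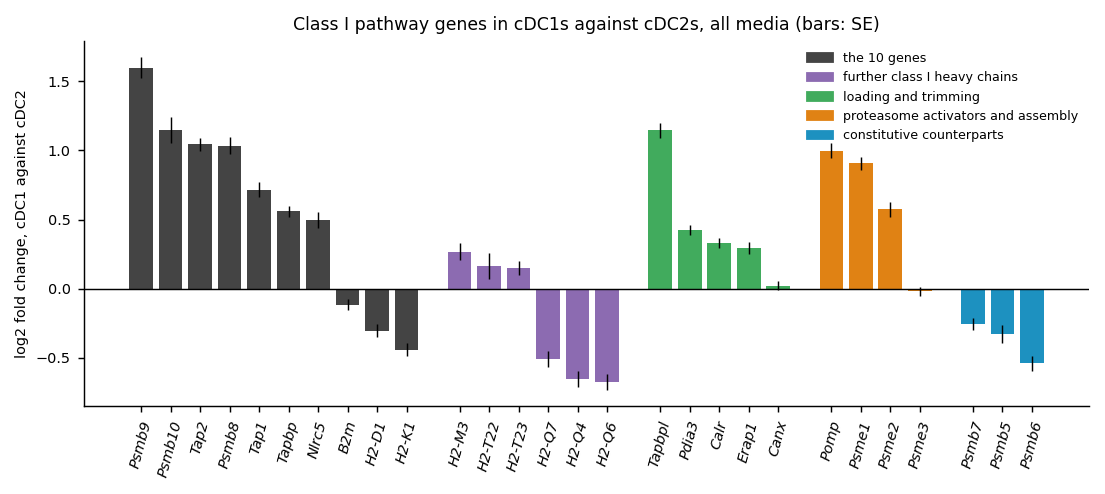
Log2 fold change of cDC1s against cDC2s over all media (vertical axis) for the 10 genes and for 4 further groups of class I pathway genes (colors) whose highest sample reached at least 2 CPM, with SE bars. The immunoproteasome and transporter genes stand up to 1.60 above 0, while H2-K1, H2-D1, B2m, 3 H2-Q genes and the constitutive subunits stand below it.

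Other genes of the pathway were counted in the same comparison, in which 59.8% of all genes passed in either direction. Of 10 further heavy chains tested, 2 were higher and 4 lower in cDC1s, among them the Qa-region genes H2-Q4 (-0.65), H2-Q6 (-0.67) and H2-Q7 (-0.51), of which H2-Q4 shares transcript windows with H2-K1. Of the 10, H2-Q1, H2-Q2, H2-Q10 and H2-T24 had at most 35 counts in any sample. Of 5 loading and trimming genes, 4 were higher in cDC1s, led by Tapbpl (1.14), a tapasin-related peptide editor. Of 4 proteasome activator and assembly genes, 3 were higher: Pomp (1.00), the assembly chaperone, and the PA28 subunits Psme1 (0.91) and Psme2 (0.57). The 3 constitutive subunits were all lower in cDC1s, with log2 differences of -0.33 for Psmb5, -0.54 for Psmb6 and -0.25 for Psmb7.

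The second question was how each kind of debris changed these genes in cDC1s. With both kinds, H2-K1 was higher and Tap1 lower than with WT medium, and Nlrc5 fell with RIPK3 debris. With BimS debris 3 of 10 genes passed the test, 2 higher and 1 lower, beside 7.31% higher and 5.89% lower of 19513 genes tested. With RIPK3 debris 6 passed, 3 higher and 3 lower, beside 8.34% and 8.19%. The median log2 difference of the 10 genes was 0.06 and -0.02, beside 0.00 and -0.01 over all genes. Both comparisons share the WT samples. Samples with the same replicate number deviated together within a cell type, so values with the number as a block are given for the 10 genes where they change a call. Each adjusted p of the block is followed by the range of adjusted p over all alternatives tried for that result, the block among them. With the block 7 genes passed with BimS debris and 6 with RIPK3 debris, beside 17.9% and 21% of all genes in either direction.

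H2-K1 in cDC1s was 732, 694 and 778 CPM with WT medium, 839, 784 and 876 with BimS debris and 824, 794 and 934 with RIPK3 debris. All samples with debris were above all WT samples. The log2 difference was 0.18 ± 0.0596 with BimS (adjusted p = 0.0464) and 0.21 ± 0.0596 with RIPK3 debris (adjusted p = 0.0187). The first call was lost without WT 1, WT 2, BimS 1, BimS 3 or RIPK3 1 (0.14 to 0.23), or with limma on log2 CPM (0.18), and the second without WT 1 or WT 2 (0.13 to 0.25).

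H2-D1 in cDC1s was 1419, 1357 and 1502 CPM with WT medium, 1644, 1491 and 1642 with BimS debris and 1566, 1556 and 1811 with RIPK3 debris. BimS 2 lay just below the highest WT sample and the others with debris lay above it. The difference was 0.20 ± 0.0586 with RIPK3 debris (adjusted p = 0.0203), a call lost without WT 1, WT 2 or RIPK3 3 (0.12 to 0.24). With BimS debris it was 0.16 ± 0.0585 (adjusted p = 0.0815) and passed with the block (0.16, adjusted p = 0.000208, 0.000208 to 0.588 over the alternatives), and also with no filter and without WT 3, BimS 2 or RIPK3 3 (0.13 to 0.20).

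B2m was 1004, 944 and 1028 CPM with WT medium, 1066, 1019.7 and 1101 with BimS debris and 1069.7, 1063 and 1199.6 with RIPK3 debris. All RIPK3 samples lay above all WT samples, and the BimS samples overlapped with them. It rose with RIPK3 debris by 0.16 ± 0.0498 (adjusted p = 0.0239), a call lost without WT 1, WT 2 or RIPK3 3 (0.09 to 0.19). With BimS debris the difference of 0.10 ± 0.0498 (adjusted p = 0.231) passed only with the block (0.10, adjusted p = 0.0416, 0.0416 to 0.841 over the alternatives). With limma on log2(count + 1) without normalization none of the 3 class I chains passed for either debris, on a scale that lowered the median of all genes by 0.12 with RIPK3 debris.

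Tap1, the transporter subunit, was lower with debris. Its levels in cDC1s were 408, 379.6 and 425 CPM with WT medium, 380.2, 330.5 and 363 with BimS debris and 359, 333 and 376 with RIPK3 debris. All samples with debris but BimS 1 lay below the lowest WT sample. The difference was -0.18 ± 0.0552 with BimS (adjusted p = 0.0303) and -0.19 ± 0.0553 with RIPK3 debris (adjusted p = 0.0151). The first call was lost without WT 1, WT 3, BimS 2 or BimS 3 (-0.23 to -0.12), or on the unnormalized scale (-0.21), and the second without WT 1, WT 3 or RIPK3 2 (-0.24 to -0.14).

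Its partner Tap2 was 217, 193 and 215 CPM with WT medium, 230.1, 199 and 209 with BimS debris and 202, 192 and 206 with RIPK3 debris. Tapbp was 312, 292 and 308 CPM with WT medium, 328, 307 and 332 with BimS debris and 310.1, 283 and 300.1 with RIPK3 debris. The groups overlapped for both genes, and neither passed the test against WT medium. The 95% intervals of the log2 difference with RIPK3 debris were -0.17 to 0.05 for Tap2 and -0.13 to 0.06 for Tapbp.

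Among the immunoproteasome subunits, Psmb9 in cDC1s was 109, 92.4 and 109 CPM with WT medium, 98.7, 79 and 94 with BimS debris and 85.7, 79.3 and 87.4 with RIPK3 debris. All RIPK3 samples lay below all WT samples, while the BimS samples overlapped with them. The fall was -0.30 ± 0.0816 with RIPK3 debris (adjusted p = 0.0165), a call lost without WT 1, WT 3 or any 1 of the RIPK3 samples (-0.38 to -0.26). With BimS debris the difference of -0.19 ± 0.0811 (adjusted p = 0.163) passed with the block (-0.19, adjusted p = 0.000938, 0.000938 to 0.422 over the alternatives), and also with no filter and without WT 2 or BimS 1 (-0.26 to -0.10).

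Psmb10 was 33, 29 and 32.5 CPM with WT medium, 39, 34 and 39.5 with BimS debris and 32.8, 32 and 37.6 with RIPK3 debris. Its mean was highest with BimS debris, but RIPK3 3 exceeded BimS 2, and RIPK3 against BimS debris did not pass (-0.14, adjusted p = 0.375). Every BimS sample exceeded every WT sample, with a rise of 0.25 ± 0.0753 (adjusted p = 0.0194). That call was lost without WT 2, BimS 1 or BimS 3 (0.20 to 0.32), or on the unnormalized scale (0.22). Psmb8, the third subunit, was 332, 307 and 319.6 CPM with WT medium, 324, 299 and 299.6 with BimS debris and 309, 308 and 346 with RIPK3 debris, with overlapping groups. Its 95% intervals of the log2 difference were -0.16 to 0.05 with BimS and -0.10 to 0.10 with RIPK3 debris.

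Nlrc5 in cDC1s was 99.5, 98.8 and 107 CPM with WT medium, 93.9, 84.2 and 94.2 with BimS debris and 78, 68.5 and 72.8 with RIPK3 debris. The groups stepped down without overlap from WT over BimS to RIPK3. With RIPK3 debris the fall was -0.48 ± 0.059 on the log2 scale, a change of -28.5% (adjusted p = 5.59e-08), and it passed without any single sample (-0.53 to -0.44). With BimS debris the difference of -0.16 ± 0.0581 (adjusted p = 0.0572) passed with the block (-0.16, adjusted p = 0.00603, 0.00603 to 0.322 over the alternatives), and also with no filter and without BimS 1 or any 1 RIPK3 sample (-0.19 to -0.12).

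**Figure D3:**
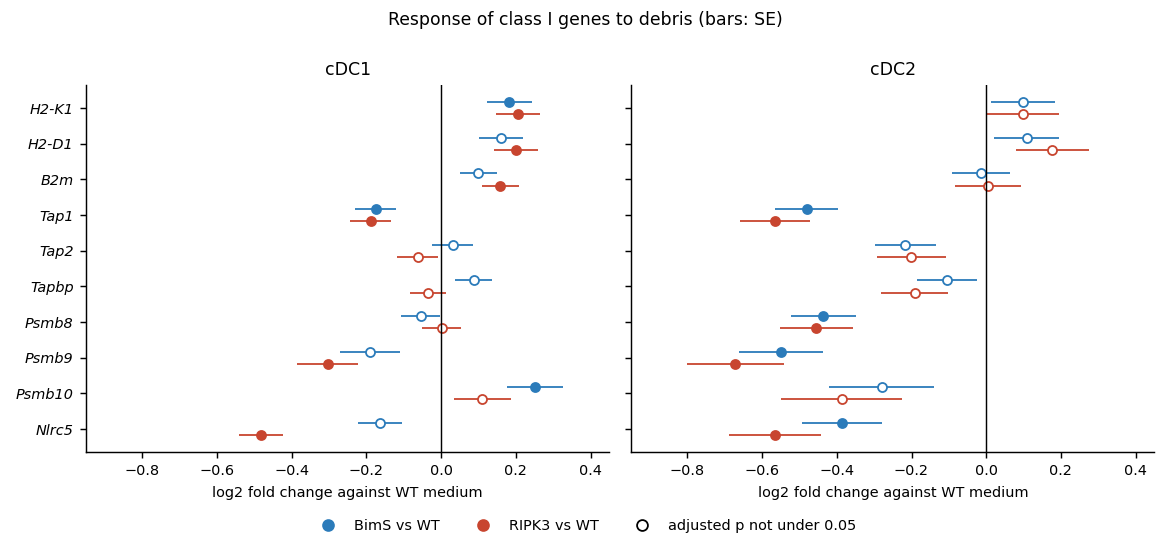
Log2 fold change against WT medium (horizontal axes) of the 10 genes with BimS debris (blue) and RIPK3 debris (red) in cDC1s and cDC2s, with SE bars and filled points where the adjusted p was under 0.05. In cDC1s the values lie between -0.48 and 0.25, and in cDC2s Tap1, Psmb8, Psmb9 and Nlrc5 lie between -0.67 and -0.39.

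In cDC2s Tap1, Psmb8, Psmb9 and Nlrc5 fell with both kinds of debris, and with all samples and without the replicate block none of the 10 genes passed as higher. With BimS debris 4 of 10 genes passed, all lower, beside 3.8% higher and 3.21% lower of 19239 genes tested. With RIPK3 debris, which has 2 samples and no replicate 3, again 4 passed, all lower, beside 3.93% and 3.28%. Tap1, Psmb8, Psmb9 and Nlrc5 were the 4 genes in either comparison, and both comparisons share the WT samples. The median log2 difference of the 10 genes was -0.25 and -0.29, beside -0.02 and -0.02 over all genes. With the replicate block 8 genes passed in each comparison, H2-K1 and H2-D1 as higher and 6 as lower. The share of all genes that passed was larger too, 11% higher and 10.3% lower with BimS debris (21.3% in all) and 10% higher and 11.4% lower with RIPK3 debris (21.4% in all). With WT medium replicate 3 was the highest cDC2 sample for each of the 10 genes but Nlrc5, and it has no RIPK3 partner. With the block the RIPK3 values were -0.51 for Tap1, -0.58 for Psmb9, -0.39 for Psmb8 and -0.63 for Nlrc5.

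Tap1 in cDC2s was 265, 274 and 309 CPM with WT medium, 206, 186 and 217 with BimS debris and 195 and 187 with RIPK3 debris. Every sample with debris lay below every WT sample. The fall was -0.48 ± 0.0835 with BimS (adjusted p = 0.000746) and -0.57 ± 0.0948 with RIPK3 debris (adjusted p = 0.000472), and both passed without any single sample (-0.53 to -0.42 and -0.61 to -0.50). Without a RIPK3 sample that arm holds 1 sample, which the fit assumes to vary like the other groups.

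Psmb9 was 37.3, 34.8 and 46.8 CPM with WT medium, 29.3, 23.6 and 28.5 with BimS debris and 25.3 and 24.5 with RIPK3 debris. No sample with debris reached a WT sample. Its fall was -0.55 ± 0.113 with BimS (adjusted p = 0.00368) and -0.67 ± 0.13 with RIPK3 debris (adjusted p = 0.00191). The latter call was lost without RIPK3 2 (-0.75 to -0.54).

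Psmb8 behaved alike, at 168, 181 and 209 CPM with WT medium, 141, 129 and 143 with BimS debris and 135 and 136 with RIPK3 debris, again without overlap. It fell by 0.44 ± 0.0874 with BimS (adjusted p = 0.00285) and by 0.45 ± 0.0988 with RIPK3 debris (adjusted p = 0.0055) on the log2 scale. The RIPK3 call was lost without either of its samples (-0.52 to -0.36). Psmb10, the least abundant subunit by count, was 14.8, 17.4 and 20.7 CPM with WT medium, 12.8, 12.9 and 17.9 with BimS debris and 13 and 13.9 with RIPK3 debris. Its groups overlapped with BimS debris, and its differences of -0.28 ± 0.141 (adjusted p = 0.307) and -0.39 ± 0.161 (adjusted p = 0.19) did not pass. With 1 sample left out the BimS value was -0.45 to -0.15. With the block the BimS value passed (-0.28, adjusted p = 0.01, 0.01 to 0.657 over the alternatives).

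Nlrc5 in cDC2s was 88.5, 77.5 and 63.9 CPM with WT medium, 64.9, 53.4 and 58.3 with BimS debris and 53.3 and 50.2 with RIPK3 debris. The lowest WT sample was below the highest BimS sample, and both RIPK3 samples were below all WT samples. It fell with BimS debris, with a log2 difference of -0.39 ± 0.108 (adjusted p = 0.0333), a call lost without WT 1, WT 2, BimS 2, BimS 3, RIPK3 1 or RIPK3 2 (-0.50 to -0.27), with the filter of filterByExpr (-0.38) or with limma on log2 CPM (-0.38). With RIPK3 debris the fall was -0.57 ± 0.123 (adjusted p = 0.00536), a call lost without either RIPK3 sample (-0.68 to -0.45).

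The class I chains did not pass in cDC2s with all samples and without the block. H2-K1 was 939, 999.8 and 1155 CPM with WT medium, 1057, 1053 and 1207 with BimS debris and 1063 and 1142 with RIPK3 debris, and H2-D1 was 1604, 1725 and 1989 CPM with WT medium, 1798, 1834 and 2110.1 with BimS debris and 1949 and 2054 with RIPK3 debris. The spread within WT medium, where replicate 3 was highest, was wider than the differences between media. Within same-numbered samples H2-K1 was higher with debris in 3 of 3 BimS pairs and 2 of 2 RIPK3 pairs. H2-K1 differed by 0.10 ± 0.0862 with BimS debris (adjusted p = 0.628), or 0.03 to 0.18 with 1 sample left out, and passed with the block (0.10, adjusted p = 0.0415, 0.0415 to 0.953 over the alternatives). With RIPK3 debris the block raised its difference from 0.10 (0.03 to 0.18 with 1 sample left out) to a called value (0.17, adjusted p = 0.000846, 0.000846 to 0.911 over the alternatives), while the unnormalized scale gave -0.07.

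For H2-D1 the differences were 0.11 ± 0.0875 with BimS (adjusted p = 0.59) and 0.18 ± 0.0975 with RIPK3 debris (adjusted p = 0.365). With 1 sample left out they were 0.03 to 0.20 and 0.11 to 0.26, and the RIPK3 value passed as higher without WT 3. Both passed with the block (0.11, adjusted p = 0.0189, 0.0189 to 0.931 over the alternatives for BimS and 0.26, adjusted p = 6.84e-08, 6.84e-08 to 0.987 over the alternatives for RIPK3). B2m was 1054, 1123 and 1209 CPM with WT medium, 1055, 1103 and 1202 with BimS debris and 1128 and 1135 with RIPK3 debris, with 95% intervals of the log2 difference of -0.17 to 0.14 and -0.17 to 0.18.

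Tap2 in cDC2s was 106, 108 and 113 CPM with WT medium, 101, 89.3 and 92.4 with BimS debris and 99 and 90.8 with RIPK3 debris, and every sample with debris lay below every WT sample. Its differences of -0.22 ± 0.0816 (adjusted p = 0.135) and -0.20 ± 0.0918 (adjusted p = 0.247, -0.27 to -0.13 with 1 sample left out) passed with the block only (-0.22, adjusted p = 8.21e-05, 8.21e-05 to 0.395 over the alternatives for BimS and -0.19, adjusted p = 0.00491, 0.00491 to 0.715 over the alternatives for RIPK3). Tapbp was 219.8, 219 and 225 CPM with WT medium, 221, 186 and 211 with BimS debris and 199 and 188 with RIPK3 debris. It differed with RIPK3 debris by -0.19 ± 0.0902 (adjusted p = 0.261), which passed with the block (-0.18, adjusted p = 0.00319, 0.00319 to 0.691 over the alternatives).

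Necroptotic and apoptotic debris were then compared directly. In cDC1s Nlrc5 was the 1 gene of the 10 that passed, lower with RIPK3 than with BimS debris, with a log2 difference of -0.32 ± 0.0593 (adjusted p = 0.000726), and it passed without any single sample (-0.37 to -0.27). The background was 1.94% higher and 2.21% lower of all genes tested. With the block, where 8.87% of all genes passed in either direction, Tapbp passed as well, also lower (-0.12, adjusted p = 0.0322, 0.0322 to 0.56 over the alternatives). The 95% intervals of the log2 difference were -0.09 to 0.14 for H2-K1, -0.07 to 0.15 for H2-D1, -0.04 to 0.16 for B2m and -0.12 to 0.09 for Tap1.

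In cDC2s none of the 10 passed between RIPK3 and BimS debris in edgeR, and none had an unadjusted p under 0.05, beside 0.161% higher and 0.218% lower of all genes. DESeq2 and both limma fits called 0 as well. With the block 14.3% of all genes passed in either direction and 2 of the 10, a share near that background. These were H2-D1 (0.15, adjusted p = 0.00737, 0.00737 to 0.987 over the alternatives), whose value was -0.03 on the unnormalized scale, and Nlrc5 (-0.25, adjusted p = 0.00247, 0.00247 to 0.964 over the alternatives). Both RIPK3 samples of Nlrc5 lay just below the lowest BimS sample. With 1 sample left out and no block, H2-D1 was 0.02 to 0.14 and Nlrc5 -0.24 to -0.11. Without the block the 95% interval for Nlrc5 was -0.42 to 0.06 and that for Tap1 was -0.27 to 0.10.

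Whether the response to debris differed between the cell types was tested as an interaction. All 10 values were above 0 for both kinds of debris, which means a less negative or more positive response in cDC1s. Many of these genes varied together and both kinds share the WT samples, so the 10 signs are not separate results. The value of H2-D1 with RIPK3 debris, 0.01 ± 0.118, was -0.05 with the block, and was between -0.08 and -0.02 without WT 2 or RIPK3 3 of the cDC1s or WT 3 or RIPK3 1 of the cDC2s. Without WT 1 of the cDC2s Nlrc5 was at -0.05 with RIPK3 debris, and without WT 3 of the cDC2s H2-K1 and H2-D1 were below 0 with BimS debris (-0.05 at the lowest). The response to BimS debris gave 0 calls, 6 unadjusted p under 0.05 and a median of 0.23, beside 0.02 over all genes and 0.561% higher and 0.309% lower calls of 19082 genes. Psmb8 had the smallest adjusted p there (0.38 ± 0.104, adjusted p = 0.0892). In the interaction fit the block gives a replicate number the same effect in both cell types. For Nlrc5 with WT medium, replicate 3 was the highest cDC1 sample and the lowest cDC2 sample. DESeq2 and both limma fits also gave 0 calls for BimS debris, no filter gave 2, and the block gave 4, beside 2.32% of all genes in either direction. The 4 were Psmb8 (0.38, adjusted p = 0.00612, 0.00612 to 0.479 over the alternatives), Psmb10 (0.53, adjusted p = 0.0119, 0.0119 to 0.443 over the alternatives), Tap1 (0.30, adjusted p = 0.0136, 0.0136 to 0.715 over the alternatives) and Psmb9 (0.35, adjusted p = 0.0363, 0.0363 to 0.744 over the alternatives). The 2 with no filter were Psmb8 and Psmb10, which also passed without WT 1 of the cDC2s (0.28 to 0.44 and 0.39 to 0.70), Psmb10 also without BimS 3 of the cDC2s, while Psmb9 was 0.22 to 0.44 with 1 sample left out. For RIPK3 debris Psmb8 passed, with a difference of 0.45 ± 0.111 (adjusted p = 0.0396), beside 0.66% higher and 0.477% lower calls. The median of the 10 genes was 0.15, beside 0.02 over all genes. The response of Psmb8 was -0.45 in cDC2s and 0.00 in cDC1s. The call was lost in 11 of 17 fits that left out 1 sample (0.35 to 0.51), those without any WT sample, BimS 2, BimS 3, RIPK3 1 or RIPK3 3 of the cDC1s, and without WT 2, WT 3 or either RIPK3 sample of the cDC2s. It was also lost on the unnormalized scale (0.50). The corresponding value for Tap1 was 0.37 ± 0.111 (adjusted p = 0.133), which passed with no filter and with the block (0.32, adjusted p = 0.015, 0.015 to 0.475 over the alternatives), as did that of Psmb8, beside 2.35% of all genes. The value for Nlrc5, lower with RIPK3 debris in both cell types, was 0.07 ± 0.136 (95% interval -0.19 to 0.34).

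Immunoproteasome and constitutive subunits were set against each other by the ratio of their CPM per kb. The size of a ratio depends on the annotated exon lengths, so only differences of the same ratio between groups can be read. For example, the means of Psmb10 and Psmb7 in cDC1s with WT medium were 31.5 and 101.5 CPM. With WT medium Psmb8 stood at 10.7 ± 0.325 times Psmb5 in cDC1s (SD, n = 3) and at 4.98 ± 0.111 times in cDC2s. With debris this ratio was 8.6 ± 0.277 (BimS) and 8.52 ± 0.525 (RIPK3) in cDC1s, and 3.03 ± 0.313 and 3.05 ± 0.268 (n = 2) in cDC2s. In both cell types every sample with debris lay below every WT sample.

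The ratio of Psmb9 to Psmb6 was 0.684 ± 0.0301 with WT medium, 0.538 ± 0.0444 with BimS and 0.496 ± 0.0299 with RIPK3 debris in cDC1s. In cDC2s it was 0.178 ± 0.00591, 0.115 ± 0.00886 and 0.102 ± 0.00399. The ratio of Psmb10 to Psmb7 in cDC1s was instead highest with BimS debris, 1.29 ± 0.0546 beside 1.08 ± 0.0587 with WT medium, while in cDC2s it went from 0.54 ± 0.0508 to 0.401 ± 0.0577 with BimS and 0.374 ± 0.0389 with RIPK3 debris. Over all media the ratios in cDC1s did not overlap with those in cDC2s: 7.94 to 10.9 against 2.66 to 5.06 for Psmb8, 0.476 to 0.714 against 0.0988 to 0.183 for Psmb9 and 1.01 to 1.34 against 0.346 to 0.569 for Psmb10. On the other side of the ratio, Psmb5 rose in cDC1s by 0.25 with BimS (adjusted p = 0.0477) and 0.32 with RIPK3 debris (adjusted p = 0.00649). The BimS call was lost in 6 of 9 fits that left out 1 sample, namely without WT 2, WT 3, any BimS sample or RIPK3 2 (0.22 to 0.30), with DESeq2 (0.25), with no filter (0.25) and with limma on log2 CPM (0.25). On the unnormalized scale both calls were lost (0.22 and 0.20). In cDC2s none of the 3 constitutive subunits passed in edgeR without the block, with 1 and 0 at an unadjusted p under 0.05.

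**Figure D4:**
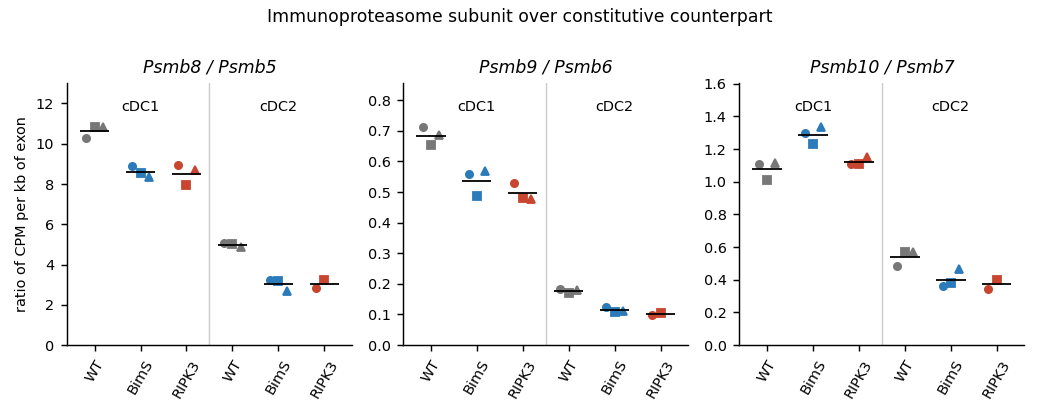
Ratio of CPM per kb of exon of each immunoproteasome subunit to its constitutive counterpart (vertical axes, from 0) in every sample of the 6 groups, with marker shapes for replicates 1 (circle), 2 (square) and 3 (triangle) and a line for the group mean. Every cDC1 sample lies above every cDC2 sample, and the Psmb8 and Psmb9 ratios with debris lie below those with WT medium in both cell types.

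The factors known to act on these genes did not move as 1 group. Of 10 regulators, 4 rose and 1 fell in cDC1s with BimS debris, 4 rose and 1 fell with RIPK3 debris, and in cDC2s 3 rose with BimS and 2 with RIPK3 debris. Over all genes, 13.2% and 16.5% passed in either direction in cDC1s and 7.01% and 7.21% in cDC2s. Irf1, an interferon-induced activator of class I and immunoproteasome genes, was 185, 175 and 183 CPM with WT medium, 269, 234 and 255 with BimS debris and 255, 238 and 246 with RIPK3 debris in cDC1s, and 78.6, 73.5 and 73.7 CPM with WT medium, 112, 103 and 109 with BimS debris and 105 and 98.8 with RIPK3 debris in cDC2s. All samples with debris exceeded all WT samples in both cell types. Irf1 rose by 0.48 ± 0.0518 and 0.44 ± 0.0518 in cDC1s (adjusted p = 4.98e-09 and 2.83e-08) and by 0.52 ± 0.0803 and 0.44 ± 0.0891 in cDC2s (adjusted p = 0.00024 and 0.00284), each with BimS and then RIPK3 debris. The last call was lost without RIPK3 1 (0.39 to 0.50) or on the unnormalized scale (0.27).

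Nfya and Nfyb, subunits of the NF-Y factor that binds class I promoters, were higher with debris. Nfyb rose in all 4 comparisons with WT medium, by 0.51 and 0.46 in cDC1s and 0.42 and 0.46 in cDC2s. On the unnormalized scale both cDC2 calls were lost (0.35 and 0.28). Nfya rose in cDC1s (0.47 and 0.30) and with BimS debris in cDC2s (0.39, a call lost without WT 2, 0.33 to 0.46). On the unnormalized scale the calls of Nfya with RIPK3 debris in cDC1s (0.18) and with BimS debris in cDC2s (0.32) were lost. Of the RFX subunits, Rfxap was lower with BimS debris (-0.26) and Rfxank higher with RIPK3 debris (0.27) in cDC1s. Both calls were lost on the unnormalized scale (-0.29 and 0.14), and a difference between the subunits was not tested. Irf2 was lower with RIPK3 debris in cDC1s (-0.15, adjusted p = 0.0287), a call lost without WT 1, WT 3 or RIPK3 2 (-0.18 to -0.12) or on the unnormalized scale (-0.27).

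Ciita, the class II transactivator and relative of Nlrc5, took another course. In cDC1s it was 292, 307 and 337 CPM with WT medium, 356, 379 and 401 with BimS debris and 316, 293 and 296 with RIPK3 debris. It rose with BimS debris (0.28 ± 0.0531, adjusted p = 0.000196), a call lost on the unnormalized scale (0.24), and was lower with RIPK3 than with BimS debris (-0.34 ± 0.0533, adjusted p = 0.000102). In cDC2s it was also lower with RIPK3 than with BimS debris (-0.56 ± 0.108, adjusted p = 0.0214), a call lost without BimS 2 or either RIPK3 sample (-0.64 to -0.47) or with the filter of filterByExpr (-0.55).

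**Figure D5:**
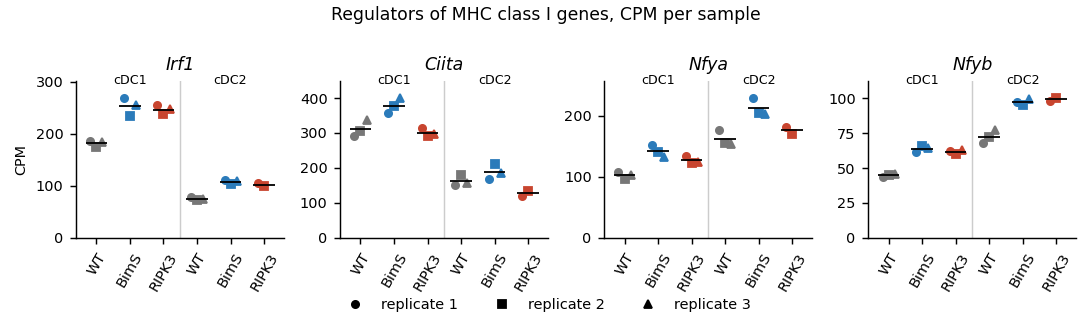
CPM of 4 regulators (vertical axes, from 0) in every sample of the 6 groups, with marker shapes for the replicate numbers and a line for the group mean. Irf1 and Nfyb lie higher with both kinds of debris than with WT medium in both cell types, and Ciita lies lower with RIPK3 than with BimS debris in both.

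Of the 10 further heavy chains tested, 0 passed in edgeR in cDC1s with either debris, beside 13.2% (BimS) and 16.5% (RIPK3) of all genes. In cDC2s 1 passed with BimS and 2 with RIPK3 debris, beside 7.01% and 7.21% of all genes. The counts at an unadjusted p under 0.05 in cDC1s were 2 and 2. H2-Q1, H2-Q2 and H2-Q10 had at most 11 counts in any sample and carried little information. H2-T22, a non-classical heavy chain gene, fell in cDC2s with BimS (-0.52, adjusted p = 0.00961) and RIPK3 debris (-0.61, adjusted p = 0.00776). The first call was lost without BimS 1 or BimS 2 (-0.65 to -0.42) and the second without RIPK3 2 (-0.76 to -0.46). H2-T24 passed as lower with RIPK3 debris in cDC2s at 35 counts or fewer per sample, a call lost without either RIPK3 sample (-2.22 to -1.67). Calr, the chaperone calreticulin, rose in cDC1s with BimS (0.15, adjusted p = 0.012) and RIPK3 debris (0.15, adjusted p = 0.0104). The calls were lost without WT 3 and, for BimS, also without BimS 2 (0.14 to 0.15 and 0.14 to 0.15), and both were lost on the unnormalized scale (0.11 and 0.03). Tapbpl rose with BimS debris in cDC1s (0.23, adjusted p = 0.00501), a call lost without BimS 1 (0.18 to 0.27) or on the unnormalized scale (0.20). No proteasome activator or assembly gene passed between media in edgeR without the block, with 0 to 1 of the 4 at an unadjusted p under 0.05.

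Among 10 genes linked to cross-presentation, the loading of class I molecules with engulfed material, Wdfy4 passed in every comparison of media in cDC1s, where it is required for that process. In cDC1s 2 of the 10 passed with BimS debris, 3 with RIPK3 debris and 2 between debris types. Over all genes 13.2%, 16.5% and 4.15% passed. The lowest value of the list with RIPK3 debris, -0.72, belonged to a gene that did not pass. Wdfy4 was 592, 552 and 651 CPM with WT medium, 487, 530.3 and 565 with BimS debris and 469, 451 and 437 with RIPK3 debris. The fall was -0.41 ± 0.0559 with RIPK3 debris (adjusted p = 2.18e-06), with no overlap, and -0.18 ± 0.0557 with BimS debris (adjusted p = 0.0276), a call lost without WT 1, WT 3, BimS 1, BimS 2 or RIPK3 3 (-0.24 to -0.12). Between the debris types it was lower with RIPK3 (-0.23 ± 0.0559, adjusted p = 0.015), a call lost without BimS 3, RIPK3 2 or RIPK3 3 (-0.28 to -0.17). The other calls of this list in cDC1s were Mpeg1, higher with BimS debris (0.16) and lower with RIPK3 than BimS debris (-0.15), Sec22b, higher with RIPK3 debris (0.18), and Lnpep, lower with it (-0.38). These calls were lost without WT 2 for Mpeg1 with BimS debris (0.14 to 0.18), without any sample but RIPK3 1 for Mpeg1 between debris types (-0.17 to -0.12), without WT 1, WT 3 or RIPK3 1 for Sec22b (0.14 to 0.21) and without any 1 WT sample for Lnpep (-0.45 to -0.25). On the unnormalized scale the Wdfy4 calls with BimS debris (-0.22) and between debris types (-0.31), both Mpeg1 calls in cDC1s (0.13 and -0.23) and that of Sec22b (0.06) were lost. The Mpeg1 call between debris types was lost too with RLE size factors (-0.14) and with filterByExpr (-0.14). The Lnpep call was also lost with the block (-0.38, adjusted p = 0.0676, 5.67e-11 to 0.0907 over the alternatives). In cDC2s Mpeg1, which encodes the pore-forming perforin-2, rose with BimS (0.81) and RIPK3 debris (0.63) and Rac2 fell with BimS debris (-0.44). The Mpeg1 calls were lost without WT 3 for BimS (0.67 to 0.97), and without WT 1, WT 3, BimS 3 or either RIPK3 sample for RIPK3 (0.49 to 0.80), and that of Rac2 without WT 2 or BimS 1 (-0.55 to -0.34).

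With the replicate block these lists gave other counts, and so did all genes. In cDC1s the block called, with BimS and RIPK3 debris in turn, 2 and 2 of the 10 further heavy chains, 2 and 1 of the 5 loading and trimming genes, 1 and 1 of the 4 activator and assembly genes, 2 and 2 of the 3 constitutive subunits, 5 and 5 of the 10 regulators and 4 and 3 of the 10 cross-presentation genes, beside 17.9% and 21% of all genes in either direction. In cDC2s the same counts were 5 and 5 of the 10 further heavy chains, 1 and 2 of the 5 loading and trimming genes, 3 and 1 of the 4 activator and assembly genes, 2 and 3 of the 3 constitutive subunits, 5 and 4 of the 10 regulators and 5 and 5 of the 10 cross-presentation genes, beside 21.3% and 21.4%. Between debris types, in cDC1s and cDC2s in turn, the block called 0 and 0 of the 10 further heavy chains, 1 and 0 of the 5 loading and trimming genes, 0 and 1 of the 4 activator and assembly genes, 0 and 1 of the 3 constitutive subunits, 3 and 4 of the 10 regulators and 3 and 5 of the 10 cross-presentation genes, beside 8.87% and 14.3%.

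Within the pathway, levels across the 17 samples after removal of each cell type's mean fell into a heavy chain group and a peptide supply group. Pearson's r was 0.97 between H2-K1 and H2-D1 and 0.91 between H2-K1 and B2m. It was also 0.97 between Tap1 and Psmb9, which share a promoter region, and 0.92 between Tap1 and Psmb8. Psmb10 lay between the groups, with 0.53 to H2-K1 and 0.61 to Tap1. Nlrc5 had an r of 0.71 with Tap1 and 0.72 with Psmb9, but of -0.58 with H2-K1 and -0.67 with H2-D1. These are descriptions: the points share libraries, normalization and the media, and Tap1 and Psmb9 overlap in the genome.

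Among 7783 genes with sufficient level, those most like Nlrc5 by this measure were Arhgap30 (r = 0.96), Dtx3l (0.95), Parp14 (0.95), Rnf213 (0.95) and Trim30d (0.95). H2-D1 ranked 6932 and H2-K1 6508 in that order. Those most like Tap1 were Psmb9 (0.97), Ncf1 (0.95), Usf1 (0.95), Ifi35 (0.95) and Hmg20b (0.94), and Psmb8 ranked 15.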

How the data were processed

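RNA of 17 samples of cDC1s and cDC2s was sequenced. The authors trimmed reads with SeqPurge, aligned them to GRCm39 with STAR 2.7.10a using an Ensembl annotation, then ran gensum to obtain gene counts, and the deposited table holds those raw counts. A deposited table of normalized log2 values was not used. Of 31239 lines, 148 had no gene identifier, with 0.0258% to 0.0366% of counts per sample, and were left out. Of 31091 identifiers, 30854 matched GENCODE M39 symbols.

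Counts were tested with the quasi-likelihood test of edgeR 4.0.16 (R 4.3.3, TMM normalization, robust fit) on every gene that had a count above 0 in 50% or more of a fit's samples, with Benjamini-Hochberg adjusted p under 0.05 over all genes tested. Media were compared within a cell type in 1 fit of 3 media, cell types in an additive fit with medium, and interactions in a fit of 6 group means. The method was tested on simulated data. Alternatives were other size factors, filters, DESeq2 1.42.0, the replicate number as a block, and leaving out each sample. Further ones were limma 3.58.1 on log2 CPM, or on log2(count + 1) without normalization. The paper names that transform, and a limma analysis that started from raw counts. Within a cell type, samples of the same replicate number deviated together (r over 0.1 in 16 of 16 pairs, median 0.355, where differently numbered samples gave 4 of 32, median -0.188), so the numbers were taken to pair samples there. Plots and tables used numpy 2.4.6, pandas 2.3.3 and matplotlib 3.10.9. The 10 genes, the gene lists and the tests were chosen with earlier results of these data known. The named genes are all 10 members, the list genes called between media, and the 5 genes most like Nlrc5 and Tap1. List genes named for the cell type difference alone were chosen after their values were seen. A listed regulator outside the 10 counted in the text is not reported here. Per-gene precision is given as SE from the fits.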

Additional observations from a re-analysis of the deposited data

Results flagged for a closer look

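The response of Psmb8 to RIPK3 debris differed between the cell types, by 0.45 on the log2 scale in the interaction test of edgeR (adjusted p = 0.0396), with a value of 0.00 in cDC1s and -0.45 in cDC2s. With the filter and without the block it was the 1 gene of the 10 with such a call in edgeR. The call was lost in 11 of 17 fits that left out 1 sample, with values between 0.35 and 0.51, and the samples are named with the interaction results. It was also lost with limma on log2(count + 1) without normalization (0.50). With the replicate block the difference was 0.41, and Tap1 passed as well (0.32, adjusted p = 0.015, 0.015 to 0.475 over the alternatives), as it did with no filter.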

How the results depend on the processing

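The calls between cDC1s and cDC2s for all 10 genes, and those of Nlrc5 in cDC1s with RIPK3 debris and of Tap1 in cDC2s, held without any single sample. With no filter, 6 genes passed in cDC1s with BimS debris in place of 3, and 2 in each interaction in place of 0 (BimS) and 1 (RIPK3). With limma on log2(count + 1) without normalization, 0 passed in cDC1s with BimS debris, 3 with RIPK3 debris in place of 6, and 0 in the RIPK3 interaction. On it 28 of the 64 calls followed through the alternatives were lost. That scale carries differences in library size, and it shifted the median of all genes by -0.17 with RIPK3 debris in cDC2s. On it H2-K1 with RIPK3 against WT in cDC2s was -0.0731 (adjusted p = 0.831), H2-D1 with RIPK3 against BimS in cDC2s -0.0337 (0.971) and B2m in cDC1s against cDC2s 0.0758 (0.281). With the replicate block as pairing, 7 genes passed in cDC1s with BimS debris, 2 between debris types in cDC1s, 8 with BimS and 8 with RIPK3 debris in cDC2s, 2 between debris types in cDC2s, and 4 and 2 in the BimS and RIPK3 interactions. The block raised calls over all genes as well, to 17.9% and 8.87% in these cDC1 comparisons, 21.3%, 21.4% and 14.3% in cDC2s and 2.32% and 2.35% in the interactions. Across cell types, where the labels do not say whether a number marks a shared culture, r was over 0.1 in 19 of 24 same-numbered pairs (median 0.21) and 5 of 48 others (median -0.101), and the block left the 10 calls between cell types in place. Leaving out each sample gave 0 to 5 calls in cDC1s with BimS and 1 to 6 with RIPK3 debris, 1 to 5 in cDC2s with RIPK3 debris, and 0 to 2 and 0 to 1 in the interactions. The cause of these changes was not tested.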
